A study of Mus musculus with 24 samples.

Results

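Peroxisomal beta-oxidation was followed through 9 genes that encode its core and helper enzymes: Ehhadh, Hsd17b4, Acaa1a, Acaa1b, Ech1, Crot, Crat, Decr2 and Hsdl2. They were chosen by name from the pathway, and each was read from the probe set annotated to it alone that had the highest mean signal over all arrays. All 9 of 9 were measured, out of 18194 genes on the array, by 15 probe sets of 1 gene each. The samples were livers of male B6C3F1 mice, a hybrid laboratory strain, that were 7 to 10 weeks old when they reached the laboratory and carried no genetic change named in the labels. Treated animals were given DEHP, diethylhexylphthalate, which softens plastics and makes rodent liver peroxisomes multiply, at 1150 mg/kg by oral gavage, and controls the same volume (10 ml/kg) of the vehicle, corn oil, which stands as a dose of 0 mg/kg. Gavage was repeated every 24 h for 3 days, and liver was taken at 2, 8, 24 and 72 h. How many doses preceded each time is not stated. Each of the 8 groups held 3 arrays, 24 in all. The design text names 6 mice without relating that number to the 3 arrays, and the labels do not say that arrays came from separate animals, so p-values measure the spread between these samples, which may be technical.

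Peroxisomes shorten very long-chain, branched and dicarboxylic fatty acids and the side chains of bile acid precursors. An oxidase opens the cycle and makes hydrogen peroxide, a bifunctional enzyme adds water and oxidises the product, and a thiolase cuts off acetyl-CoA, after which the shortened chain leaves as a carnitine ester or a free acid. In rodent liver the nuclear receptor PPARalpha controls many of these genes, and compounds that activate it enlarge the peroxisome population.

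The values are log2 signals on which a step of 1 is a doubling. Array medians lay between 6.46 and 6.55, arrays of a group correlated over probe sets with r between 0.989 and 0.996, and the highest signal of any array was 14.55. The defining hepatocyte markers were high on every array, with a mean signal over the 5 of 7 measured between 14.11 and 14.22. On corn oil 8 h replicate 2 the 3' probe set of Actb stood 1.46 above the 5' one, against 0.50 to 0.82 on the other arrays, a measure of RNA degradation. Corn oil 72 h replicate 1 had the highest mean of the 5 measured neutrophil markers (7.52), and of its group the highest mean of the 8 exocrine pancreas markers (9.77 against 7.25 and 7.26). Pancreas markers were also high on DEHP 2 h replicate 1 (10.89), corn oil 2 h replicates 1 and 2 (8.73 and 9.58), DEHP 72 h replicate 1 (9.32) and corn oil 8 h replicate 1 (8.11), and lay between 7.16 and 7.64 on the other arrays. A bulk liver array cannot tell fewer cells of a type from less RNA per cell.

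DEHP raised the transcripts of the pathway unevenly. Ehhadh was higher at all 4 times, 3.81-fold at 2 h and 8.13-fold at 72 h. Hsdl2 and Crot also rose at 2 h. At 72 h Crot was at the corn oil level of that time, which was itself higher than at 2 h. Hsd17b4 and Acaa1b passed the test at 8, 24 and 72 h, and Ech1 at 24 and 72 h. At an adjusted p under 0.05 in limma, 3, 5, 5 and 7 of the 9 genes were called higher at 2, 8, 24 and 72 h, and no member was called lower. Of all 18194 genes, 0.616%, 1.28%, 0.253% and 1.13% were called higher at these times. The 9 genes were chosen with earlier results of these data known, so setting their counts beside these shares is no independent test. Leaving out 1 array of 72 h gave 4 to 6 members called at that time. The median change of the 9 genes was 0.29, 0.45, 0.65 and 0.63 (log2), beside -0.02, -0.02, 0.00 and -0.03 over all genes. All 3 DEHP arrays lay above all 3 corn oil arrays for 5, 8, 7 and 8 members, and for 4.67%, 5.44%, 6.38% and 10.1% of all genes.

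**Figure D1:**
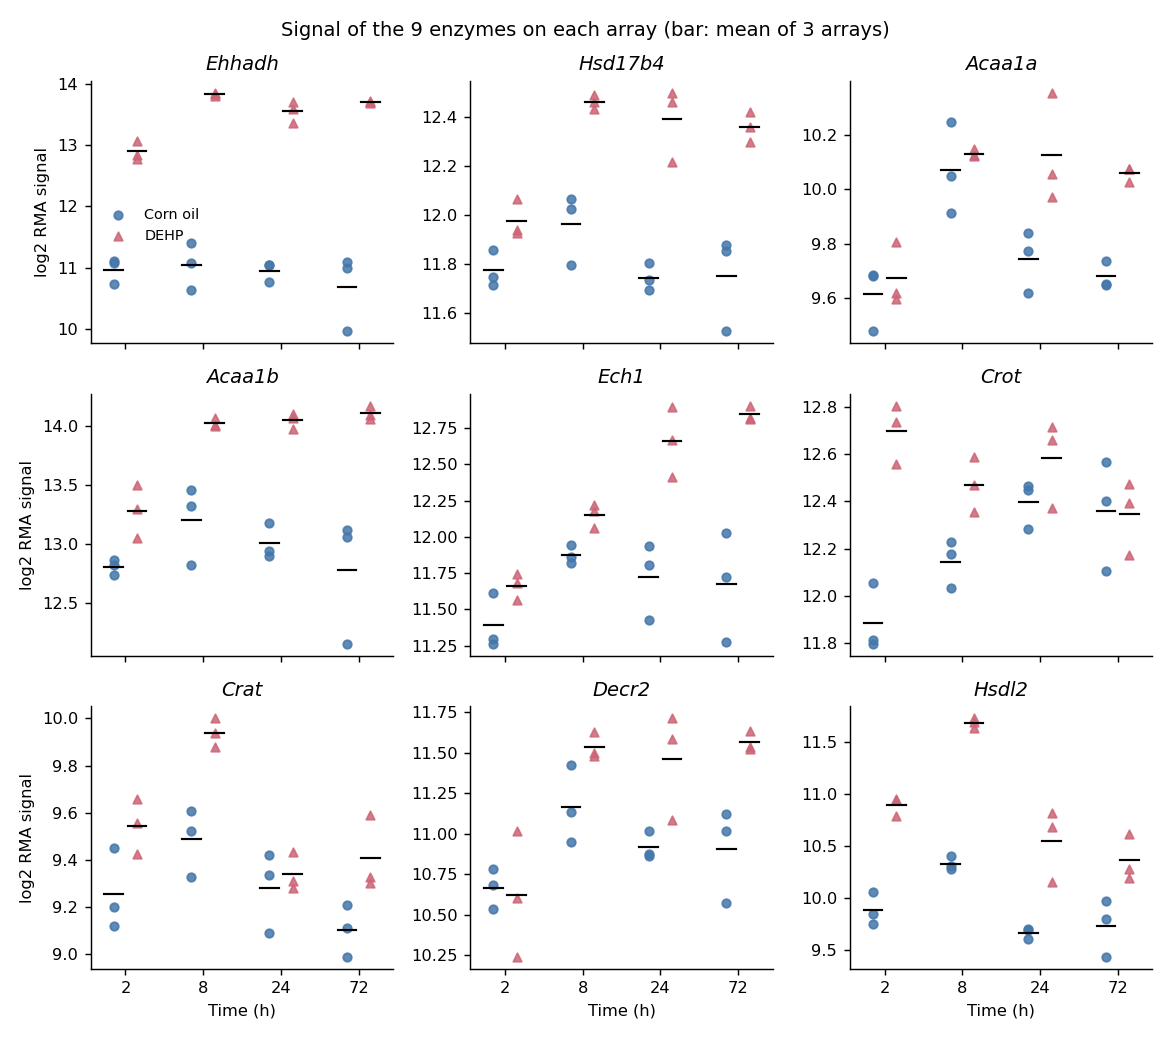
Log2 RMA signal of each of the 9 enzymes on each of the 24 arrays, by time in hours; blue circles are corn oil, red triangles DEHP, and each bar is the mean of 3 arrays. Vertical scales differ between panels and do not start at 0; Ehhadh separates widely at every time, Crot only at 2 and 8 h, and the lowest corn oil point of Ehhadh, Acaa1b and Hsd17b4 at 72 h is the same array.

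The middle steps of the cycle are run by bifunctional enzymes. Ehhadh encodes the L-specific one, which handles straight-chain substrates and is a classic marker of peroxisome proliferation. At 2 h its signal was 10.73, 11.07 and 11.10 on the corn oil arrays and 12.77, 13.08 and 12.85 on the DEHP arrays. At 8 h it was 10.63, 11.40 and 11.08 against 13.83, 13.81 and 13.85. The DEHP arrays lay close together at 8 h (SD 0.02), while the corn oil arrays were more spread (SD 0.39). From 8 h on the DEHP readings stood between percentiles 99.78 and 99.92 of all probe sets, near the top of the scale. Whether this compressed the rise was not tested. At 24 h the values were 11.04, 10.77 and 11.04 against 13.37, 13.70 and 13.59. At 72 h they were 9.96, 11.09 and 10.99 against 13.72, 13.68 and 13.70. No DEHP array came near the corn oil range at any time, and the one low control value at 72 h is that of replicate 1.

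Ehhadh rose by 1.93 ± 0.21 at 2 h (log2 change ± SE from the fit, n = 3 arrays a group throughout; limma, adjusted p = 1.47e-05). The rise was 2.79 ± 0.21 at 8 h (adjusted p = 1.68e-08 in limma), 2.61 ± 0.21 at 24 h (adjusted p = 1.32e-07) and 3.02 ± 0.21 at 72 h (adjusted p = 5.97e-09). Among 18194 genes ordered by signed change, Ehhadh stood at rank 14, 6, 5 and 5. Without corn oil 72 h replicate 1 the 72 h rise was 2.66. Between 2 and 72 h the rise grew by 1.09 ± 0.29, which missed the threshold in limma (adjusted p = 0.05003, 95% interval 0.48 to 1.70). It was 0.73 without corn oil 72 h replicate 1 (limma, adjusted p = 0.0729). The start of the gene, printed because this transcript changed most, lies on mouse chromosome 16 at chr16:21787785-21788084, minus strand, of GRCm38.p6 (RefSeq). It runs from 250 bases before to 50 bases after the annotated start, and holds 60.7% G and C.
Ehhadh: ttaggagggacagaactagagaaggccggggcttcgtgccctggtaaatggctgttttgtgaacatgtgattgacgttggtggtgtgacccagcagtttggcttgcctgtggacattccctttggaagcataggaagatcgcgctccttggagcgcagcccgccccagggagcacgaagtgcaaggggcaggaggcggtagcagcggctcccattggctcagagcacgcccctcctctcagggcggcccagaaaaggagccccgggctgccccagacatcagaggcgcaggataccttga

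Hsd17b4 encodes the D-specific bifunctional enzyme, which serves branched chains and bile acid intermediates and is broadly expressed. Its corn oil arrays read 11.75, 11.86 and 11.72 at 2 h and its DEHP arrays 11.93, 11.94 and 12.07. At 8 h the readings were 11.80, 12.03 and 12.07 against 12.46, 12.49 and 12.43. At 24 h they were 11.81, 11.70 and 11.74 against 12.22, 12.50 and 12.46, and at 72 h 11.53, 11.85 and 11.88 against 12.42, 12.36 and 12.30. On this chosen probe set the groups did not overlap at any time, yet the steps were small. In limma the 2 h difference of 0.20 ± 0.10 did not pass (adjusted p = 0.587), while the later ones of 0.50 (adjusted p = 0.00347), 0.65 (adjusted p = 0.00122) and 0.61 (adjusted p = 0.00104), each ± 0.10, did. Fitted from the 6 arrays of 24 h alone, the 24 h call was lost (limma, adjusted p = 0.0662). A second Hsd17b4 probe set, tested among all 45101, changed by 0.36, 0.30, 0.49 and 0.57 at the 4 times. Its groups overlapped at 2 and 8 h. It was called at 72 h alone (limma, adjusted p = 0.038), and not at 8 h (adjusted p = 0.385) or 24 h (adjusted p = 0.305). On each array the Hsd17b4 signal was subtracted from the Ehhadh signal. Mean Ehhadh signal was below that of Hsd17b4 in corn oil and above it under DEHP at every time. DEHP raised the difference by 2.10 on average over the 4 times (exact permutation of labels within times, 2-sided p = 1.25e-05, adjusted over 6 gene pairs 2.5e-05). The unadjusted p is the smallest that 160000 permutations can give. The 2 bifunctional enzymes therefore changed by unequal amounts.

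Thiolases close the cycle. Acaa1a and Acaa1b encode closely related 3-ketoacyl-CoA thiolases, of which Acaa1b is the form known for induction by peroxisome proliferators. The Acaa1b signal was 12.87, 12.74 and 12.82 in corn oil and 13.05, 13.50 and 13.30 under DEHP at 2 h. It was 12.82, 13.46 and 13.32 against 14.07, 13.998 and 14.01 at 8 h. At 24 h it was 13.18, 12.90 and 12.94 against 13.97, 14.07 and 14.10, and at 72 h 12.15, 13.06 and 13.12 against 14.17, 14.09 and 14.06. Every DEHP array was above every corn oil array of its time. From 8 h on its probe set stood between percentiles 99.95 and 99.98 of all 45101 probe sets on the DEHP arrays. The change was 0.47 ± 0.18 at 2 h (not called in limma, adjusted p = 0.39), 0.83 at 8 h (adjusted p = 0.00852), 1.04 at 24 h (adjusted p = 0.00558) and 1.33 at 72 h (adjusted p = 0.000173), all ± 0.18. The DEHP readings from 8 h on lie near the highest signal of each array (14.44 to 14.55). Whether this compressed the changes was not tested. Without corn oil 8 h replicate 1 the 8 h change was 0.64 and the limma call was lost (adjusted p = 0.0597).

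Acaa1a moved less. Its corn oil arrays read 9.48, 9.68 and 9.68 at 2 h and 9.91, 10.25 and 10.05 at 8 h, beside 9.59, 9.81 and 9.62 and then 10.12, 10.15 and 10.12 under DEHP. At 24 h the readings were 9.84, 9.62 and 9.77 against 9.97, 10.35 and 10.06. At 72 h they were 9.65, 9.65 and 9.74 against 10.07, 10.03 and 10.08. The groups overlapped at 2 and 8 h, where the change was 0.06 at each time, and were apart later. At 24 h the change was 0.38 ± 0.10 (limma, adjusted p = 0.17), and at 72 h it was 0.38 ± 0.10 and was called (adjusted p = 0.0339). That call was lost in each of the 6 fits that left out 1 array of the time, with changes from 0.37 to 0.41.

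On the same arrays DEHP raised Acaa1b over Acaa1a by 0.69 on average over the 4 times (exact permutation, 2-sided p = 1.25e-05, adjusted over 6 pairs 2.5e-05). The Acaa1b readings near the top of the scale enter this difference. Both Acaa1a probe sets are of a type that may hybridise with related transcripts, so the split between these near-identical genes is uncertain. A pair of probe sets annotated to both genes, kept out of the gene table, changed by 0.50 and 0.41 at 2 h, 1.26 and 0.81 at 8 h, 1.55 and 1.12 at 24 h, and 1.60 and 1.21 at 72 h. The RefSeq starts of the 2 thiolase genes are set out below because the probe sets cannot fully separate the transcripts; Acaa1a is at chr9:119341044-119341343 on the plus strand and Acaa1b at chr9:119157044-119157343 on the minus strand of GRCm38.p6. Each run covers 250 bases before and 50 after the start.
Acaa1a: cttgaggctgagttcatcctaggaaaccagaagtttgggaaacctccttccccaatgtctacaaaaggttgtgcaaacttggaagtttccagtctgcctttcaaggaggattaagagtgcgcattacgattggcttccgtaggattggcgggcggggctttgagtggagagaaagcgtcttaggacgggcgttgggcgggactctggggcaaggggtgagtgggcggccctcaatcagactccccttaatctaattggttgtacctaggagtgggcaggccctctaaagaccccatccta
Acaa1b: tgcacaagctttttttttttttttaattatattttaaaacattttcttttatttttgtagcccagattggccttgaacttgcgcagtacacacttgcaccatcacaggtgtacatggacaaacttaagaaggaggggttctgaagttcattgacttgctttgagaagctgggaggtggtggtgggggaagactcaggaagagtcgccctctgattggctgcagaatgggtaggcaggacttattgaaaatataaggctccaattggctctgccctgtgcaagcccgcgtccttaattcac

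The pair of thiolase promoters was identical at 153 of 322 columns of a global alignment (47.5%). Acaa1b held 4 CpG dinucleotides, an observed over expected ratio of 0.284, and Acaa1a held 10, a ratio of 0.481. Over the 32851 promoters of the table the median ratio was 0.384. Crat had no promoter in this set, and Hsd17b4 was left out. RefSeq promoters of the other 7 of the 9 genes were used. They were searched on both strands for the direct repeat that PPARalpha binds with its partner RXR, written AGGTCANAGGTCA and allowing 2 mismatches, and for its unit AGGTCA or TGACCT, which the repeat contains. None of the 7 held the repeat, their closest stretches having 4 to 5 mismatches, and 3.86% of all promoters of the same length did. The unit was in 0 of 7 and in 16.3% of all promoters. These letters are not in windows of 300 bases, and other positions were not searched.

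Ech1 and Decr2 encode helper enzymes that shift or remove double bonds, so that unsaturated chains can pass through the cycle. For Ech1, a dienoyl-CoA isomerase, the signal at 2 h was 11.30, 11.61 and 11.26 in corn oil and 11.68, 11.74 and 11.57 under DEHP, and the groups overlapped. At 8 h the signal was 11.82, 11.94 and 11.86 against 12.22, 12.17 and 12.06. At 24 h it was 11.80, 11.94 and 11.43 against 12.41, 12.90 and 12.67, and at 72 h 11.27, 11.72 and 12.03 against 12.90, 12.82 and 12.81. The gap between the groups was wide only at the last 2 times. The change was 0.27 and 0.28 at 2 and 8 h (limma, adjusted p = 0.682 and 0.416), 0.94 at 24 h (adjusted p = 0.00307) and 1.17 at 72 h (adjusted p = 0.000104), each ± 0.15. From the 6 arrays of 24 h alone the 24 h call was lost (limma, adjusted p = 0.0851). The change itself grew by 0.89 ± 0.22 from 2 to 72 h (limma, adjusted p = 0.0286), as it did for 0.599% of all genes. This difference between times was called in 4 of 12 fits that left out 1 array of either time, with values from 0.69 to 1.07.

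Decr2 encodes the peroxisomal 2,4-dienoyl-CoA reductase. At 2 h it read 10.54, 10.69 and 10.78 in corn oil and 10.61, 11.02 and 10.24 under DEHP, the widest DEHP spread of the 9 genes (SD 0.39). At 8 h it read 10.95, 11.13 and 11.42 against 11.50, 11.63 and 11.48. At 24 h the readings were 10.86, 10.88 and 11.02 against 11.09, 11.71 and 11.58, and at 72 h 10.57, 11.02 and 11.12 against 11.53, 11.63 and 11.54. From 8 h on the groups did not overlap, but by small margins. The change of 0.66 ± 0.17 at 72 h was called in limma (adjusted p = 0.032), while -0.05 at 2 h, 0.37 at 8 h (adjusted p = 0.293) and 0.54 at 24 h (adjusted p = 0.339) were not. The 72 h call was lost in 5 of 6 fits that left out 1 array of the time, with 0.49 without corn oil replicate 1. Ech1 changed more than Decr2 on the same arrays, by 0.28 over the 4 times (exact permutation, 2-sided p = 0.00808, adjusted over 6 pairs 0.0121), though not at 8 h, where the difference was -0.09.

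Carnitine esters carry shortened chains out towards the mitochondrion. Crot encodes the octanoyltransferase of peroxisomes, which acts on medium chains. Its 2 h signal was 11.79, 12.05 and 11.81 in corn oil and 12.81, 12.56 and 12.73 under DEHP. At 8 h it was 12.23, 12.18 and 12.03 against 12.47, 12.59 and 12.35. At both times the groups were apart. At 24 h the signal was 12.45, 12.46 and 12.28 against 12.37, 12.72 and 12.66, and at 72 h 12.40, 12.10 and 12.57 against 12.47, 12.39 and 12.17. At these times the groups overlapped, and the corn oil arrays stood higher than at 2 h, on average by 0.51 and 0.47 (limma, adjusted p = 0.154 and 0.112). The change was 0.81 ± 0.12 at 2 h (limma, adjusted p = 0.000519), 0.33 at 8 h (adjusted p = 0.143), 0.19 at 24 h (adjusted p = 0.706) and -0.01 at 72 h (adjusted p = 0.972). It fell by 0.83 ± 0.17 from 2 to 72 h (limma, adjusted p = 0.0113), in all 12 fits without 1 array (-0.95 to -0.72), and 1.74% of all genes fell likewise. With the mean of both Crot probe sets the fall was -0.36 and not called (adjusted p = 0.158); the second, dim probe set changed by 0.09 at 2 h.

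Crat encodes the acetyltransferase for the shortest chains, which works in mitochondria as well as peroxisomes. The chosen probe set, like that of Acaa1a, is of the type that may hybridise with related transcripts, while the other Crat probe sets are not. It read 9.52, 9.61 and 9.33 in corn oil and 9.88, 10.00 and 9.94 under DEHP at 8 h, without overlap. At 2 h it read 9.45, 9.12 and 9.20 against 9.42, 9.55 and 9.66, at 24 h 9.42, 9.34 and 9.09 against 9.28, 9.43 and 9.31, and at 72 h 9.21, 9.11 and 8.99 against 9.59, 9.33 and 9.30. Only at 8 h was the change called, at 0.45 ± 0.11 (limma, adjusted p = 0.0162). The call was lost without corn oil 8 h replicate 3 (0.37), DEHP 8 h replicate 2 (0.42) or DEHP 8 h replicate 3 (0.45), and without both arrays that share the number RC14 in their titles (0.34). It was also lost in a fit of the 6 arrays of 8 h alone (limma, adjusted p = 0.0524). A second Crat probe set, tested among all 45101, read 8.98, 8.86 and 8.50 against 10.60, 10.57 and 10.40 at 8 h. It changed by 1.01 at 2 h (limma, adjusted p = 0.0105), 1.74 at 8 h (adjusted p = 6.2e-06), 0.75 at 24 h (adjusted p = 0.179) and 0.68 at 72 h (adjusted p = 0.0586). The remaining one changed by 0.48, 0.68, -0.01 and -0.02, and was called at 8 h alone (limma, adjusted p = 0.00091). With the mean of all probe sets Crat was also called at 2 h (0.59, limma, adjusted p = 0.000885) and 72 h (0.32, adjusted p = 0.0473). With arrays weighted in limma, the chosen probe set was also called at 72 h (0.31, adjusted p = 0.03).

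Which acyltransferase rose more depended on the probe sets. With the chosen ones Crot exceeded Crat by 0.05 over the 4 times (exact permutation, 2-sided p = 0.608, adjusted 0.608). The difference was 0.53 at 2 h, -0.13 at 8 h, 0.13 at 24 h and -0.31 at 72 h. With the mean of all probe sets it was -0.32 (adjusted p = 0.00123 by the exact permutation).

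**Figure D2:**
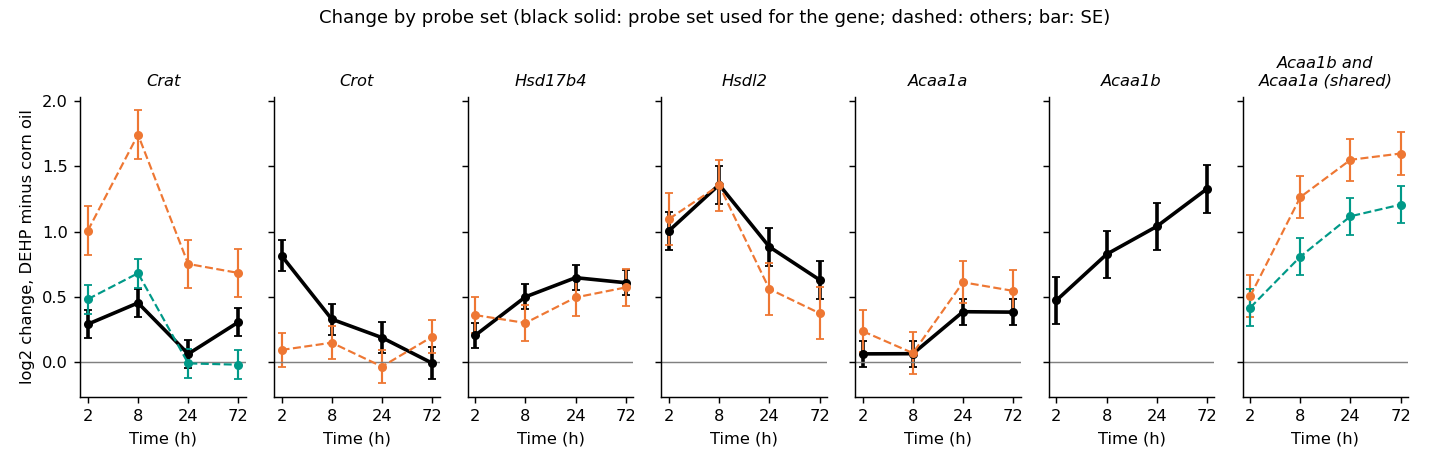
Log2 change, DEHP minus corn oil, against time in hours for every probe set of the 5 genes with more than 1, of Acaa1b, and of the pair annotated to both thiolase genes; bars are SE of the fit, the black solid line is the probe set used for the gene, and dashed lines are the others. The probe sets of Crat run apart, from 0.45 to 1.74 at 8 h, while those of Hsdl2 give 1.36 there.

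Hsdl2 encodes a short-chain dehydrogenase-like protein of peroxisomes that carries a sterol carrier domain and whose substrate is less well defined. At 2 h it read 10.05, 9.75 and 9.85 in corn oil and 10.94, 10.78 and 10.94 under DEHP. At 8 h it read 10.40, 10.30 and 10.27 against 11.72, 11.63 and 11.69. These gaps are wide beside the spread within groups, which was at most 0.16 (SD). At 24 h the readings were 9.69, 9.60 and 9.69 against 10.15, 10.82 and 10.68, and at 72 h 9.43, 9.79 and 9.96 against 10.62, 10.28 and 10.19. DEHP arrays stayed above corn oil arrays at all 4 times. The rise was 1.01 at 2 h (limma, adjusted p = 0.000382), 1.36 at 8 h (adjusted p = 3.22e-06), 0.88 at 24 h (adjusted p = 0.00307) and 0.63 at 72 h (adjusted p = 0.0165), each ± 0.14. The 72 h call was lost without corn oil replicate 1 (0.48) or DEHP replicate 1 (0.50). With the 6 arrays of a time alone the calls at 24 h (limma, adjusted p = 0.116) and 72 h (adjusted p = 0.0572) were lost. With the mean of both probe sets the rises at 24 h (0.72, adjusted p = 0.0646 in limma) and 72 h (0.50, adjusted p = 0.0791) were not called.

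**Figure D3:**
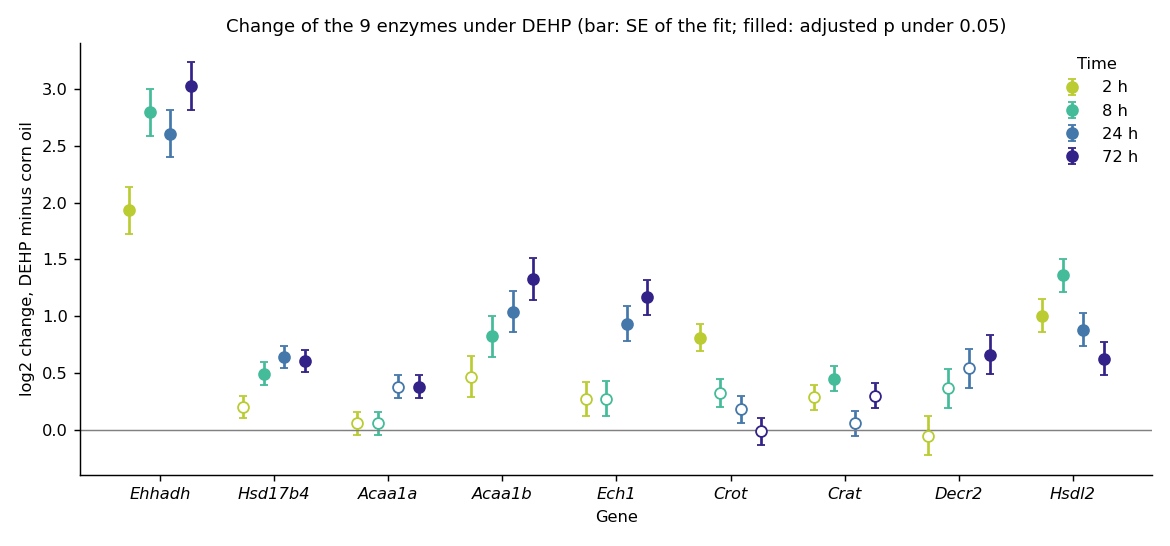
Log2 change, DEHP minus corn oil, of each of the 9 enzymes at 2, 8, 24 and 72 h (yellow-green, teal, blue and dark purple); bars are SE of the fit and filled points have an adjusted p under 0.05. Acaa1b and Ech1 run upward with time to 1.33 and 1.17, and Crot runs downward from 0.81 to -0.01.

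No member's change was called as differing between successive times in limma. The count was 0 of 9 from 2 to 8 h, from 8 to 24 h and from 24 to 72 h. The shares of all genes called in either direction were 0.418%, 0.467% and 0.022%. A missed call does not show that a change stayed the same. Unadjusted intervals from 2 to 8 h excluded 0 for Ehhadh (0.25 to 1.47), Hsd17b4 (0.01 to 0.58) and Crot (-0.84 to -0.14). Those from 8 to 24 h excluded 0 for Ech1 (0.21 to 1.11) and Acaa1a (0.03 to 0.62), both upward. Crat (-0.71 to -0.07) and Hsdl2 (-0.9 to -0.05) did so downward. From 24 to 72 h every interval included 0. Over the whole span from 2 to 72 h Ech1 and Crot were called as differing, in opposite directions. Array by array, some members ran closer together than others. Over the 24 arrays, which share 8 groups and are no independent points, the correlation was positive for all 36 member pairs and ran from r = 0.17 for Crot with Decr2 to r = 0.96 for Hsd17b4 with Acaa1b. On DEHP 24 h replicate 1 all 9 members were at the lowest value of their group, and on replicate 2 of that group 8 of 9 were at the highest. On corn oil 72 h replicate 1, 6 of 9 were at the lowest. Its part in the 72 h changes beyond the fits without it was not tested.

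The level in corn oil was itself not flat. Acaa1a, Crot and Hsdl2 differed between times in corn oil (limma F test, adjusted p = 0.0292, 0.0357 and 0.0258), 3 of 9 members beside 3.55% of all genes. Corn oil Acaa1a stood 0.46 ± 0.10 higher at 8 h than at 2 h (limma, adjusted p = 0.0101). Hsdl2 fell by 0.66 ± 0.14 from 8 to 24 h (limma, adjusted p = 0.0125). All 3 calls were lost without corn oil 8 h replicate 2, the array with the large Actb difference, and with that difference as a covariate. They were called in 9, 6 and 9 of 12 fits that left out 1 corn oil array.

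Other cell types were read through their markers. At 72 h the mean of the 7 macrophage markers was 8.93 to 9.31 on corn oil arrays and 8.45 to 8.72 on DEHP arrays, and that of the 6 endothelial markers was 7.83 to 8.197 and 7.47 to 7.63. At 2 h the mean of the neutrophil markers was 6.66 to 6.70 in corn oil and 6.76 to 7.08 under DEHP. That of the endothelial markers was 7.83 to 7.98 and 7.63 to 7.80. The mean of the 5 hepatocyte markers was lower under DEHP, without overlap, at 8 h (14.17 to 14.19 against 14.11 to 14.13). It was so too at 24 h (14.17 to 14.20 against 14.13 to 14.16) and 72 h (14.18 to 14.22 against 14.13 to 14.16). Single markers did not all do so. Alb overlapped between the groups at 8 h, and mean Apoa1 was 14.44 in both groups at 72 h. The hepatocyte markers lie near the highest signal of each array (14.44 to 14.55), so the size of their shift cannot be set beside that of other markers. At the remaining times the ranges of the macrophage, endothelial and neutrophil means overlapped. So did those of the means of the 8 pancreas, 3 adipocyte and 3 red cell markers at all 4 times. The part of cell makeup in the changes of the 9 enzymes was not tested.

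The other genes of the peroxisomal pathway were taken from lists by role. Of 33, 29 were measured, and the others are not analysed here. Of the 29, 4, 8, 2 and 2 were called higher at 2, 8, 24 and 72 h in limma, and 0, 2, 0 and 0 lower; at 8 h, 2.86% of all genes were called lower. Of all genes, 0.616%, 1.28%, 0.253% and 1.13% were called higher at these times. The median change of the 29 was 0.03, 0.16, 0.10 and 0.02. At the entry, the half-transporter Abcd3 rose at 8 h by 0.63 ± 0.12 (limma, adjusted p = 0.00384). Among oxidases and racemase, 0 of 3 were called at any time, and the largest change was 0.35 for the racemase Amacr at 2 h (limma, adjusted p = 0.179). Scp2, the thiolase for branched chains, changed by at most 0.02, and Cat, the catalase that removes hydrogen peroxide, by at most 0.13 in size, at 24 h, where it was -0.13 (limma, adjusted p = 0.755).

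Among the other auxiliary genes, Aldh3a2, a fatty aldehyde dehydrogenase, changed by 0.38, 1.21, 1.40 and 1.88, each ± 0.27, and was called from 8 h on (limma, adjusted p = 0.0003199 at 72 h). Its 8 h call was lost in 2 and its 24 h call in 3 of 6 fits without 1 array. Eci2, an isomerase of double bonds, rose by 0.79 ± 0.15 at 2 h (limma, adjusted p = 0.00655) and was also called at 24 and 72 h (0.70 and 0.69), calls kept in 1 and 4 of 6 such fits. Hacl1, a lyase of alpha-oxidation, rose by 0.60 at 8 h, and Pecr, a reductase, fell by 0.35 there.

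Thioesterases, which free acids from coenzyme A, gave the largest changes of these lists at 2 and 8 h. Acot3 read 7.72, 8.16 and 9.84 in corn oil and 12.24, 11.61 and 11.85 under DEHP at 8 h, a rise of 3.33 ± 0.35 (limma, adjusted p = 3.07e-06). Acot4 rose by 2.15 ± 0.21 there (limma, adjusted p = 1.26e-06). At 24 h neither was called (0.47 and 0.41), and the drop between the times was itself called in limma, -2.86 for Acot3 (adjusted p = 0.00629) and -1.74 for Acot4 (adjusted p = 0.00611). Their 2 h calls (2.82-fold and 1.89-fold) and that of Mlycd, malonyl-CoA decarboxylase (0.39 on the log2 scale), were lost in at least 5 of 6 fits without 1 array. Acot8 rose by 0.54 and Nudt7, a coenzyme A hydrolase, fell by 0.43 at 8 h. The import receptor Pex5 (0.62) and the protease Lonp2 (0.54) rose at 8 h; the Pex5 change was 0.39 and not called without corn oil replicate 2. Of these 8 h calls at the named genes, those of Nudt7, Pecr, Acot8 and Pex5 were lost in 4, 2, 1 and 3 of 6 such fits.

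Mitochondrial beta-oxidation runs parallel steps. Of its 16 listed genes 1, 7, 8 and 8 were called higher at 2, 8, 24 and 72 h in limma and none lower, with a median change of 0.12, 0.41, 0.44 and 0.38. Of all genes, 0.616%, 1.28%, 0.253% and 1.13% were called higher at these times. Cpt2, the inner carnitine transferase, was the gene called at 2 h (0.59), and it kept that call in 1 of 6 fits without 1 array. From 2 to 72 h the change was called growing for 5 of 16, Eci1, Decr1, Hadha, Acadl and Acaa2, beside 0.599% of all genes. With the mean of all probe sets the growth was 0.49 for Decr1 (limma, adjusted p = 0.167) and 0.44 for Acaa2 (adjusted p = 0.0635), and neither was called. Eci1, an isomerase, rose by 1.11 at 24 h and 1.14 at 72 h. Decr1, the mitochondrial dienoyl-CoA reductase, changed by 0.10, 0.48, 0.94 and 0.95, of which the last 3 were called (limma, adjusted p = 0.0463 at 8 h, lost in all 6 fits without 1 array). The acyl-CoA dehydrogenases Acadm and Acadl rose by 0.88 and 0.86 at 72 h.

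Counterparts of the same step were compared on the same arrays. Ehhadh gained 2.14 over Hadha, the alpha subunit of the mitochondrial trifunctional protein, averaged over the 4 times (exact permutation, 2-sided p = 1.25e-05, adjusted over 6 pairs 2.5e-05). Hadha itself changed by -0.04 at 2 h and by 0.50, 0.72 and 0.63 later. For the reductases the order was the other way: Decr2 changed by 0.24 less than Decr1 (-0.24; exact permutation, 2-sided p = 0.0115, adjusted 0.0138). Of the 6 pairs, 5 had an adjusted p under 0.05 and stayed so in all 24 sets that left out 1 array.

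**Figure D4:**
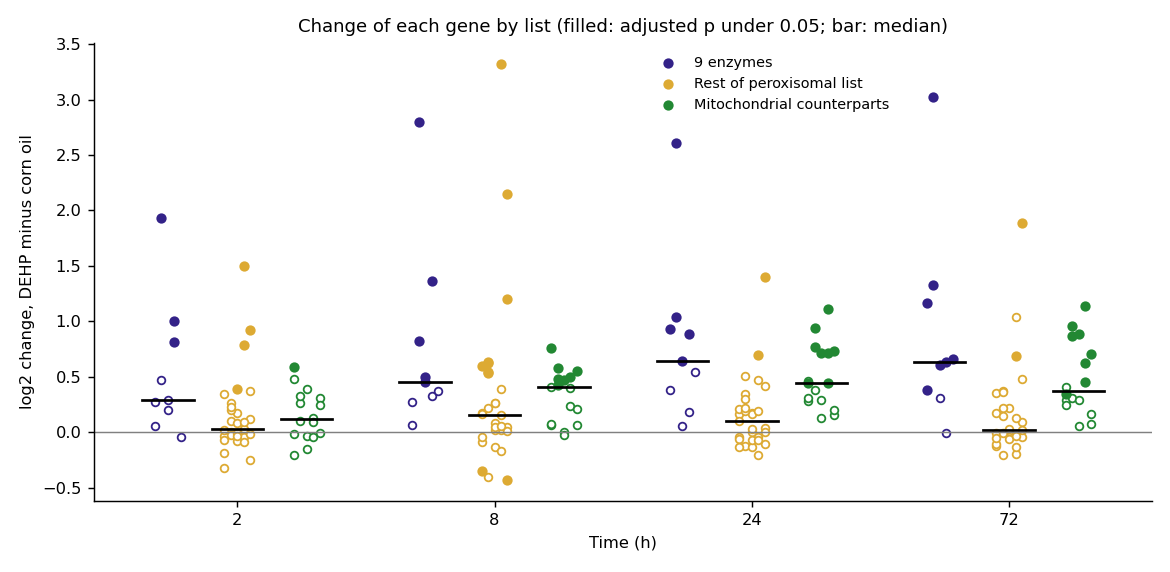
Log2 change, DEHP minus corn oil, of every measured gene of the 9 enzymes (purple), the other 29 peroxisomal genes (gold) and the 16 mitochondrial counterparts (green) at 2, 8, 24 and 72 h; filled points have an adjusted p under 0.05 and bars are medians. Ehhadh is the highest purple point at each time, Acot3 the highest gold point at 2 and 8 h, and Aldh3a2 at 24 and 72 h.

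The genes whose signals ran most like the mean profile of the 9 enzymes, by Pearson correlation over the 24 arrays, were Cyp4a31 (r = 0.944), Hadhb (0.944), Vnn1 (0.943), Acot2 (0.936), Pctp (0.933), Aldh3a2 (0.931), Acadm (0.929) and Cyp4a14 (0.928). Cyp4a31 and Cyp4a14 encode omega-hydroxylases of fatty acids, Vnn1 a pantetheinase, Acot2 a mitochondrial thioesterase and Pctp a phosphatidylcholine carrier. The arrays share their groups, so these values describe likeness within this set only.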

How the data were processed

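The authors deposited log2 signals computed with RMA, per the submitters' processing notes and the labels; the version of RMA is not given in the sources used here. Total RNA was labelled with biotin by standard Affymetrix procedures, per the labels. RMA corrects background and makes array distributions alike, so a global shift cannot be seen. The 9 members and all lists were chosen with earlier results of these data known. Of 45101 probe sets, 34958 carried 1 gene symbol, 932 several and 9211 had no annotation row; 18194 genes were each represented by the probe set with the highest mean over 24 arrays. limma 3.58.1 in R 4.3.3 fitted 1 model of the 8 group means (16 residual and 6.21 prior degrees of freedom), with moderated tests and p-values adjusted by Benjamini-Hochberg over 18194 genes. Genes of other lists were named when called, at most 4 a list by size of change, or the largest change where none was called; Mlycd, Cpt2 and Acaa2 were named after their values were seen. Gene pairs were compared by exact permutation of compound labels within times. Promoters came from the RefSeq table of GRCm38.p6; 18032 genes matched RefSeq by Entrez ID. Precision is limited by the number of arrays. The fit was checked on simulated data. Python 3.11.15 and Biopython 1.88 served the remaining steps.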

Additional observations from a re-analysis of the deposited data

Results flagged for a closer look

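Some changes differed between times by the test of the difference itself (limma, p adjusted over 18194 genes). Among the 9 enzymes, the change of Ech1 grew by 0.89 and that of Crot fell by 0.83 from 2 to 72 h. Corn oil Crot itself stood 0.47 higher at 72 h than at 2 h (limma, adjusted p = 0.112).

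Outside them, the change of Aldh3a2 grew by 1.51, Eci1 by 1.05, Decr1 by 0.85, Hadha by 0.67, Acadl by 0.60 and Acaa2 by 0.55 over the same span. From 8 to 24 h the change of Acot3 fell by 2.86 and the change of Acot4 fell by 1.74. Leaving out 1 array of either time kept these calls in 12 of 12 fits for Acot3 and Acot4, 10 for Eci1 and Decr1, 7 for Hadha, 6 for Acaa2, and 4 for Aldh3a2 and Acadl. With the mean of all probe sets the calls of Decr1 and Acaa2 were lost (limma, adjusted p = 0.167 and 0.0635). Without corn oil 72 h replicate 1 the values were 1.10 for Aldh3a2 (adjusted p = 0.0674 in limma), 0.55 for Hadha (adjusted p = 0.0511), 0.48 for Acadl (adjusted p = 0.0795) and 0.48 for Acaa2 (adjusted p = 0.0531).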

How the results depend on the processing

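Of the counts of called members and the gene pairs, 360 values under an alternative kept their direction and side of the threshold (counts within 1.5 times), 23 were weaker, 4 stronger and 1 reversed; for single members at a time 718, 34, 4 and 0, and for other named genes 1881, 165, 10 and 0. The reversed value was Crot against Crat with the mean of all probe sets (-0.32). That setting also gave 1 member, Crat, differing from 8 to 24 h, and 1 from 2 to 72 h. At an adjusted p under 0.01, 4 members were called at 72 h, 0 differed from 2 to 72 h and 0 between times in corn oil. With a 1.5-fold threshold 3 were called at 8 h and 1 (Hsdl2) differed in corn oil. Without both arrays numbered RC14, 1 differed in corn oil, and with the Actb difference as a covariate 0. With both doubtful vehicle arrays left out together (8 h replicate 2, 72 h replicate 1), 1 (Ehhadh) differed from 2 to 8 h and 0 in corn oil. The 6 arrays of 24 h alone called 2, Ehhadh and Acaa1b. Arrays of 1 time alone also ended the calls of Mlycd at 2 h, Pecr, Nudt7, Pex5 and Acadl at 8 h, and Aldh3a2, Eci2 and Hadha at 24 h. Leaving out 1 array gave 4 to 6 members at 72 h (4 without corn oil or DEHP replicate 1), 4 to 5 at 8 h, 1 to 4 from 2 to 72 h (4 without DEHP 2 h replicate 2 or corn oil 72 h replicate 3) and 0 to 3 in corn oil (0 without 8 h replicate 2); the counts at 2 and 24 h did not move. A loss on leaving out an array also reflects fewer samples; the other causes were not tested. With the replicate number as a replicate block, 3, 5, 5 and 7 members were called at the 4 times, and Ehhadh was added from 2 to 72 h (limma, adjusted p = 0.0247), but not with the number as a random block (adjusted p = 0.0686); over all alternatives but single arrays left out its adjusted p ran from 0.0193 to 0.0723. With replicate 1 against the later replicates as a batch, Ehhadh was also added from 2 to 72 h (limma, adjusted p = 0.01975). Same-numbered arrays deviated from their groups with r between -0.35 and 0.14. These values cannot tell whether such arrays share a batch. No member was dim: the lowest mean signal, of Crat, stood at percentile 85.4 of genes.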
